A study of Salmo salar with 16 samples.

Results

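Brain was compared with ovary in Atlantic salmon (Salmo salar), using the 4 mid-brain and the 4 ovary libraries, which are 8 of the 16 libraries of a study of brain, pituitary gland, ovary and liver. The libraries were chosen by their tissue labels alone, and the comparison asks which genes and functions are higher on each side. The study used 4 sexually immature female fish of 3 years from the SALTAS breeding program, so the brain and ovary groups shared age, sex and maturity and received no treatment. Messenger RNA from whole tissue pieces was sequenced, and counts of reads per gene were deposited. Each library mixes all cell types of the piece that was taken, so more cells of a type and more RNA per cell cannot be told apart in any result below. The labels do not tie a replicate number to a fish, so p-values measure the spread between libraries.

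A vertebrate brain is built of neurons, which signal through synapses by releasing transmitter from vesicles and by opening ion channels, and of glia, among them the oligodendrocytes that wrap axons in myelin and the astroglia that take up transmitter. A growing fish ovary is mostly oocytes. They stop in meiosis, store messenger RNA and protein for the embryo, lay down an egg coat of zona pellucida proteins, and are surrounded by follicle cells that make steroid hormones. In salmon most of these genes are present as several copies left by a whole-genome duplication, so a product name can stand for more than 1 gene.

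Levels are given in CPM, counts scaled to a common library total after that total is corrected for composition. Brain libraries held 23239082, 51858156, 27260918 and 24408177 counts in replicates 1 to 4, and ovary libraries held 30566429, 29778376, 25444509 and 28269818. The floor of 3 counts averaged 0.0775 CPM in brain and 0.0734 CPM in ovary. Markers of each tissue were high under its own label. They were chosen with results of these data known, so they are not an independent check of the labels. The synaptosomal-associated protein 25-A gene (sn25a, part of the machinery that fuses synaptic vesicles) was at 942 to 3316 CPM in brain and at 2.63 to 4.59 CPM in ovary. The germ cell helicase ddx4 was at 0.276 to 0.974 CPM in brain and at 167 to 189 CPM in ovary.

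The 4 ovary libraries were closer to one another than the 4 brain libraries in the sums below. Summed over 35 myelin and oligodendrocyte genes, the level was 34423, 17373, 18002 and 3206 CPM in brain replicates 1 to 4, and 430 to 468.8 CPM in ovary. Ependymin-1 (epd1, chr4:45445655-45447879 on the ICSASG_v2 assembly), a secreted glycoprotein made in the meninges of fish, was at 1124, 255, 120341 and 87006 CPM in brain replicates 1 to 4 and at 51.2, 110, 55.8 and 92 CPM in the ovary replicates. Brain replicates 3 and 4 thus stood apart for ependymin, and brain replicate 4 for its low myelin. Over 80 genes of meninges and connective tissue the sums were 203.3, 182.2, 2338 and 2096 CPM in the brain replicates, against 828.1 to 1136 CPM in ovary. Of 40 tested members 10 (25%) were higher in brain and 3 (7.5%) higher in ovary. Without brain replicates 3 and 4 these counts were 5 and 7. Other lists, of further cell types and of other tissues, were also summed. Blood genes summed to 52.23 to 324 CPM in brain and 10.03 to 20.68 CPM in ovary, with 15 of 21 tested genes higher in brain and 1 higher in ovary. Among all genes tested, 27.6% were called higher in brain and 19.0% higher in ovary. The blood count in brain was 9 without ovary replicate 1 or 3 and 8 without brain replicates 3 and 4. Markers of macrophages and leukocytes summed to 617.6 to 1865 CPM in brain and 293 to 472.8 CPM in ovary, and those of muscle to 501.6 to 740.3 CPM in brain and 973.9 to 1077 CPM in ovary. Of 30 tested macrophage and leukocyte genes 9 (30%) were higher in brain and 5 (16.7%) higher in ovary. Of 62 tested muscle genes 14 (22.6%) were higher in brain and 15 (24.2%) higher in ovary. Both lists were near the shares of all genes tested. Those of endothelium summed to 58.13 to 186.2 CPM in brain and 61.96 to 67.56 CPM in ovary. Of 18 tested endothelium genes 10 (55.6%) were higher in brain and 2 (11.1%) higher in ovary, the latter 1 when any 1 ovary replicate was left out. The ranges of the groups also overlapped for pituitary hormones, with 228.1 to 580 CPM in brain and 471.8 to 654.8 CPM in ovary, and for liver plasma proteins, with 69.59 to 303.2 CPM in brain and 221.6 to 247.8 CPM in ovary. Of the tested genes in those 2 lists, 0 of 15 and 0 of 34 were higher in brain, and 0 of 15 and 3 of 34 were higher in ovary, by edgeR at the thresholds given next. At an unadjusted p under 0.05, edgeR had 0 pituitary hormone genes in either direction and 2 liver genes higher in brain; DESeq2 called 0 and 1 of these and limma 0 and 0. The liver count in ovary was 1 without brain replicate 2 or ovary replicate 2. With DESeq2 size factors, or when only the 8 libraries were fitted, that count was 0. Members at 0 in all 8 libraries numbered 9 of 42 for blood, 6 of 45 for leukocytes, 33 of 80 for connective tissue, 10 of 31 for endothelium, 93 of 230 for muscle, 2 of 18 for pituitary hormones and 21 of 54 for liver. The source of these transcripts and their part in the results were not tested.

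**Figure D1:**
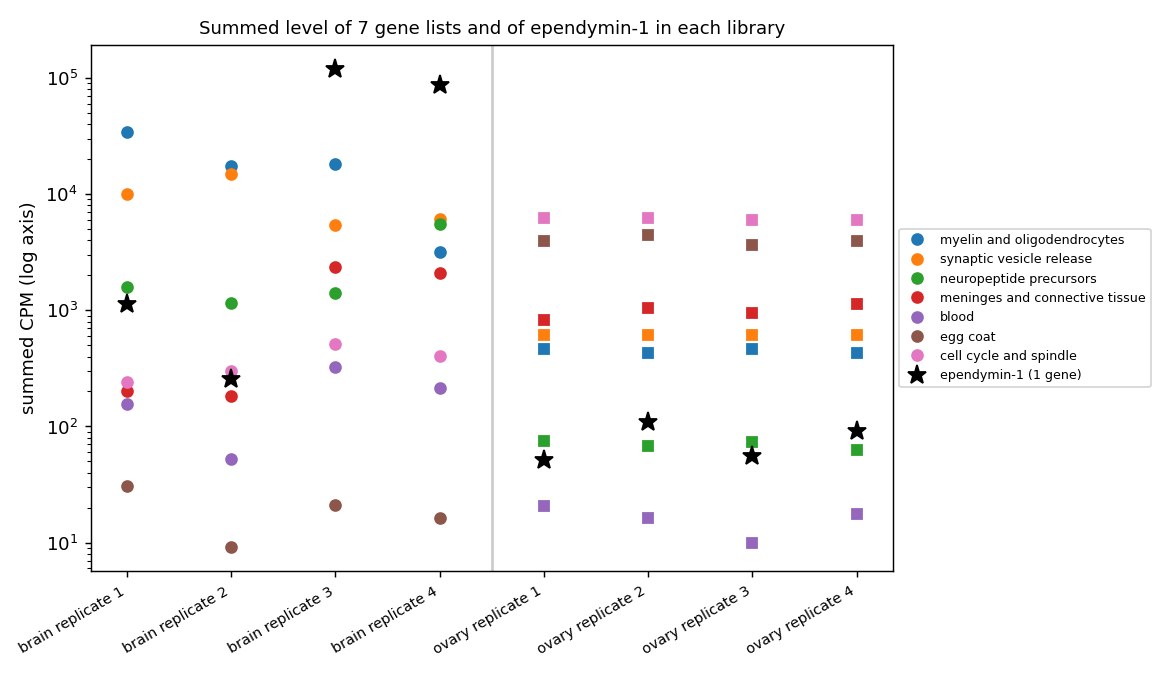
Summed CPM (log axis) of 7 gene lists, and the CPM of ependymin-1 as stars, in each of the 4 brain and 4 ovary libraries; circles are brain and squares are ovary. On the log axis the ovary libraries lie closer together than the brain libraries for each list and for ependymin-1. In brain the myelin sum runs between 3206 and 34423 CPM and ependymin-1 between 255 and 120341 CPM.

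Of 37043 genes tested, 17260 differed between brain and ovary, which is 46.6%. Calls required a log2 fold change of 2 or more in either direction and an adjusted p no higher than 0.001 in the quasi-likelihood test of edgeR, after Benjamini-Hochberg correction across every tested gene. Of these genes 10229 were higher in brain (27.6% of genes tested) and 7031 higher in ovary (19.0%). The median log2 fold change over all genes tested was 0.20, and it was 4.30 among genes higher in brain and -3.33 among genes higher in ovary. Genes on the ovary side were the more abundant in their own tissue, with a median of 8.06 CPM in brain for the brain side and of 25.6 CPM in ovary for the ovary side. At 1000 CPM or more in the tissue of the call there were 24 genes on the brain side and 1 on the ovary side. Genes called higher in brain held 50.1 ± 2.37% of the counts in brain libraries and 2.58 ± 0.126% in ovary libraries (SD, n = 4 each). Genes called higher in ovary held 4.09 ± 0.131% of the counts in brain libraries and 43.4 ± 0.426% in ovary libraries. Brain was the highest of the 4 tissues for 61.2% of the genes on its side, and pituitary (2134 genes) or liver (1838 genes) for the others. Ovary was the highest of the 4 for 91.1% of the genes on its side. A total of 261 brain-side genes had no count in any ovary library, and 112 ovary-side genes had none in any brain library.

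The functions on each side were followed in 21 lists of genes, drawn up by product name. Every list count below is to be read beside the shares of all genes tested, 27.6% higher in brain and 19.0% higher in ovary. The 11 lists of neural function held 1690 genes, of which 1140 were tested. Of those tested, 848 (74.4%) were higher in brain and 39 (3.42%) higher in ovary. The 10 lists of ovarian function held 501 genes, of which 373 were tested. Of those tested, 37 (9.92%) were higher in brain and 224 (60.1%) higher in ovary. A gene can pass the filter on counts through the tissue where it is high, so part of these shares may follow from the filter. Without brain replicates 3 and 4, a setting chosen after seeing the data, the first list group had 893 genes higher in brain and the second 225 higher in ovary. Ovary-side counts of neural lists moved too in that setting. They went from 6 to 11 for voltage-gated cation channels, from 8 to 14 for neural transcription factors and from 9 to 8 for GABA and glycine.

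**Figure D2:**
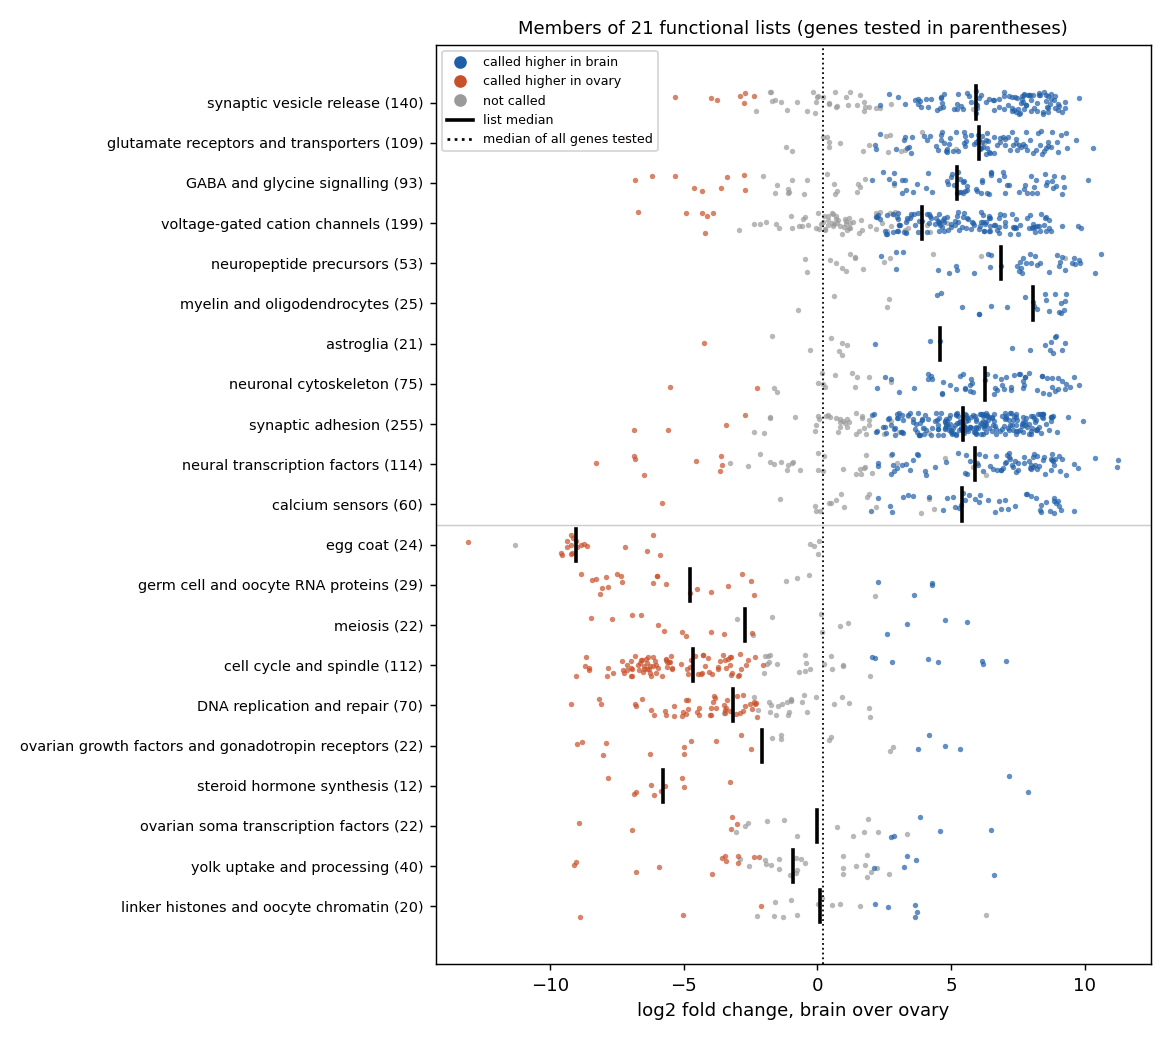
Log2 fold change, brain over ovary, of the tested members of 21 functional lists, 11 neural above the grey line and 10 ovarian below it; blue points were called higher in brain, orange points higher in ovary and grey points were not called. Black bars are list medians and the dotted line is the median of all genes tested, 0.20. All 11 neural medians lie at 3.90 or above, and the ovarian medians run between -9.01 for the egg coat and 0.11 for oocyte chromatin.

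Genes of synaptic vesicle release were higher in brain in 100 of 140 tested cases, and 7 were higher in ovary. Their median log2 fold change was 5.95. The sn25a gene (chr6:72554812-72587031) had 2363, 3316, 1136 and 942 CPM in brain replicates 1 to 4, against 3.6, 2.99, 4.59 and 2.63 CPM in the ovary replicates, a log2 fold change of 9.13 ± 0.49 (SE, edgeR adjusted p = 7.9e-11). Brain replicates 3 and 4 were the lower ones and all 4 lay far above every ovary library. The same order of brain replicates was seen for a vesicle-associated membrane protein 1-like gene (LOC106576624), the partner of SNAP-25 on the vesicle, with 815, 1183, 369 and 329 CPM in brain against 1.14 to 2.08 CPM in ovary. Syntaxin-binding protein 1 (LOC106567272), which chaperones vesicle fusion, had 265 to 740 CPM in brain and 3.63 to 4.47 CPM in ovary. Rab-3 proteins, small GTPases of vesicle docking, were also found on the other side. A Rab-3D-like gene (LOC106601190) was lower in brain, with 0.62, 0.815, 4.25 and 4.87 CPM in brain against 39.1 to 42.2 CPM in ovary (log2 fold change -3.97 ± 0.51, edgeR adjusted p = 2.2e-06). It was higher still in pituitary, which averaged 169 CPM. A Rab-3-like gene (LOC106576487) had 0.0591 to 0.925 CPM in brain and 11.4 to 17.9 CPM in ovary. The fitted value, -5.32 on the log2 scale, moved to -6.49 without brain replicate 2, its highest brain library.

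Glutamate, the main excitatory transmitter, had 91 of 109 tested receptor and transporter genes higher in brain and 1 higher in ovary, with a median log2 fold change of 6.03. An excitatory amino acid transporter 2-like gene (LOC106573351, chr16:20545020-20584857), whose protein clears glutamate from the synapse, had 1193, 915, 354 and 714 CPM in brain against 1.55, 1.23, 1.7 and 1.74 CPM in ovary. The NMDA receptor subunit grin2b had 20.8, 5.3, 9.06 and 47.7 CPM in brain, and 2 counts in all ovary libraries together. Its ratio of 1698 had a 95% counting interval between 470 and 14022, and its fitted log2 fold change of 10.31 was 9.49 without brain replicate 4. The AMPA-type glutamate receptor 2-like gene (LOC106611560) had 57.5 to 180 CPM in brain and 0.759 to 1.27 CPM in ovary. One high value came from a single brain library. A glutamate receptor U1-like gene (LOC106582807) had 7.74, 1647, 21.2 and 2.74 CPM in brain replicates 1 to 4 against 0.831 to 2.47 CPM in ovary. Its log2 fold change of 8.16 (edgeR adjusted p = 4.3e-04) became 2.84 without brain replicate 2, with an adjusted p of 1.0e-03 that missed the threshold, and the call was also lost when any 1 ovary replicate was left out, the highest adjusted p being 2.3e-03.

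Receptors and transporters of GABA and glycine, the inhibitory transmitters, were higher in brain in 66 of 93 tested cases and higher in ovary in 9. A GABA-A receptor alpha-1 gene (LOC100380670) had 325, 358, 117 and 212 CPM in brain against 0.577, 0.285, 0.637 and 0.245 CPM in ovary, a log2 fold change of 9.17 ± 0.44 (edgeR adjusted p = 2.8e-11). The second alpha-1 gene (LOC106567505) had 117 to 389 CPM in brain and 0.27 to 0.6 CPM in ovary. The glycine receptor subunit glra1 had 47.3, 24, 22.7 and 4.93 CPM in brain and 3 counts in ovary, a ratio of 1351 with a counting interval between 462 and 6550. Of the 9 ovary-side members 5 were named GABA transporter 2-like, a name that 19 genes share, so reads of near-identical copies may be missing from their counts. Of these, LOC106583541 had 3 counts in brain, all in replicate 3, and 2.49, 0.403, 3.29 and 3.95 CPM in ovary. Its log2 fold change was -6.81, and -9.26 without brain replicate 3, and limma did not call it (adjusted p = 4.9e-03). A second one, LOC106567643, had 0 to 0.0414 CPM in brain and 1.16 to 2.42 CPM in ovary. The difference was -6.16 on the log2 scale, and -6.99 without brain replicate 2, while that of glra1 was 10.12, and 10.94 without ovary replicate 1.

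Voltage-gated channels carry the action potential. Of 199 tested voltage-gated cation channel genes 126 were higher in brain, 6 higher in ovary and 67 not called, with a median log2 fold change of 3.90. The ovary-side count was 11 without brain replicates 3 and 4. A sodium channel type 8 alpha-like gene (LOC106567001) had 210, 565, 69.7 and 152 CPM in brain against 0.785 to 1.43 CPM in ovary. Without brain replicate 2, the highest, its log2 fold change was 7.14 in place of 7.94. A sodium channel type 4 alpha B-like gene (LOC106600868) had 53.2 to 261 CPM in brain and 1.87 to 3.76 CPM in ovary. A potassium channel C1-like gene (LOC106600760), of the fast-firing Kv3 class, had 121, 218, 31.8 and 10.7 CPM in brain against 0.982 to 1.75 CPM in ovary. Exons of a gene on the opposite strand overlap 2601 bases of it, its log2 fold change was 6.10, and it was 5.29 without brain replicate 2. On the ovary side, a calcium-activated potassium channel beta-2-like gene (LOC106568748) had 0.413, 0.0553, 0.443 and 0.456 CPM in brain against 34.5, 32.8, 32.4 and 34.3 CPM in ovary (log2 fold change -6.69 ± 0.53, edgeR adjusted p = 8.8e-09). The 4 ovary libraries were nearly equal for it and no brain library came near them. A potassium channel H5-like gene (LOC106610918) had 0.111 to 0.384 CPM in brain and 6.46 to 7.8 CPM in ovary.

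Neuropeptide precursor genes were higher in brain in 38 of 53 tested cases and higher in ovary in 0 by edgeR, also at an unadjusted p under 0.05 and by DESeq2 and limma. Without brain replicates 3 and 4, 2 members were higher in ovary. A few of the largest levels rested on brain replicate 4. Vasotocin (LOC106563362, chr11:68827175-68828780), the fish form of vasopressin, had 5.99, 15, 4.46 and 1030 CPM in brain replicates 1 to 4 and 0.442 to 0.9 CPM in ovary. Without brain replicate 4 its log2 fold change was 3.72 in place of 8.67 and its edgeR adjusted p was 1.2e-05. Vasotocin was not called by limma (adjusted p = 1.2e-02). EdgeR did not call it when only the 8 libraries were fitted (adjusted p = 4.0e-03) or with the replicate number as a block (adjusted p = 3.2e-03). Isotocin (LOC106584961), the fish form of oxytocin, was named after its values were seen. It had 2.86, 0.525, 1.27 and 2169 CPM in brain against 0.393 to 0.808 CPM in ovary, and its call was lost without brain replicate 4 (log2 fold change 1.33, edgeR adjusted p = 1.2e-01) and without any 1 ovary replicate. The spread was smaller for other precursors. The PACAP precursor gene paca had 233, 122, 81.6 and 234 CPM in brain against 0.508 to 1.06 CPM in ovary, and a secretogranin-2-like gene (LOC106569633), whose product lies in the granules that store peptides, had 97.9 to 175 CPM in brain and 0.589 to 1.09 CPM in ovary. Secretogranin was not highest in brain, since pituitary averaged 432 CPM.

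Myelin and oligodendrocyte genes were higher in brain in 21 of 25 tested cases and higher in ovary in 0, with the largest list median of the 11 neural lists, 8.07. At an unadjusted p under 0.05, 1 member was higher in ovary by edgeR, and DESeq2 and limma called 0. A myelin protein P0-like gene (LOC106600490, chr3:40118970-40130972), the main adhesive protein of fish central myelin, had 10090, 5724, 5591 and 880 CPM in brain against 11.8, 9.14, 12.1 and 7.68 CPM in ovary. Myelin basic protein-like genes, which compact the sheath, were likewise highest in brain replicate 1 and lowest in brain replicate 4. One of them (LOC106583543) had 9139, 3406, 4125 and 581 CPM in brain against 14.7 to 18.5 CPM in ovary, and its log2 fold change of 8.10 was 7.43 without brain replicate 1. Another (LOC106605072) had 5948, 2792, 3316 and 514 CPM in brain and 21.9 to 25.3 CPM in ovary. For these genes brain replicate 4 was lowest and still above every ovary library. The regulator of the oligodendrocyte lineage olig2 (LOC106586884) had 55, 33.6, 29 and 12.1 CPM in brain and 0.0245 to 0.133 CPM in ovary. Not all members moved: the gene for 2',3'-cyclic-nucleotide 3'-phosphodiesterase (LOC106601016) averaged 209.4 CPM in brain and 347.9 CPM in ovary, with a log2 fold change of -0.73 that was below the fold threshold.

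Astroglial genes were higher in brain in 13 of 21 tested cases and higher in ovary in 1. A gap junction alpha-1-like gene (LOC106607775), a connexin that couples glia, had 2493, 2287, 1232 and 805 CPM in brain against 2.28 to 3.64 CPM in ovary. The calcium-binding protein s100b had 1910, 1397, 906 and 689 CPM in brain and 2.95 to 3.88 CPM in ovary. Glial fibrillary acidic protein-like LOC106585555, the intermediate filament of astroglia, was named after its values were seen and had 237, 276, 211 and 27.2 CPM in brain against 0.323 to 0.478 CPM in ovary. Brain replicate 4 was lowest for all 3 genes. Vimentin (vim), which many cell types express, averaged 434.3 CPM in brain and 301.5 CPM in ovary and was not called (log2 fold change 0.53, edgeR adjusted p = 0.333). The 1 member called on the other side, aquaporin-4-like LOC106599701, was at 0 to 0.0591 CPM in brain and 0.319 to 0.6 CPM in ovary, and its call was lost when brain replicate 2, 3 or 4 or ovary replicate 1, 2 or 4 was left out, with adjusted p up to 1.6e-03.

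Neuronal cytoskeleton genes were higher in brain in 61 of 75 tested cases and higher in ovary in 2. Neurofilament medium polypeptide (nfm), which sets axon calibre, had 1790, 1834, 1568 and 106 CPM in brain against 2.91, 2.42, 2.84 and 2.06 CPM in ovary, and alpha-internexin-like (LOC106588656) had 484, 452, 505 and 98.7 CPM in brain against 0.783 to 1.13 CPM in ovary. Brain replicate 4 was again the low one for both neurofilament proteins. It was less apart for a microtubule-associated protein 1B-like gene (LOC106584644), which had 527, 693, 328 and 253 CPM in brain and 1.33 to 2.18 CPM in ovary. A second gene of that name (LOC106573927) lay on the other side, with 11.9, 15.7, 16.1 and 17.5 CPM in brain against 76.3, 78.5, 70.2 and 67.9 CPM in ovary. Its log2 fold change was -2.26 ± 0.14 (edgeR adjusted p = 4.8e-10), and it was -1.99, under the fold threshold, when only the 8 libraries were fitted. The other ovary-side member was neurofilament medium polypeptide-like LOC106564019, a name that 12 genes share. It had 0.0295 to 0.274 CPM in brain against 5.71 to 8.17 CPM in ovary (log2 fold change -5.49 ± 0.55, edgeR adjusted p = 1.2e-07).

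Synaptic adhesion molecules were the longest list, with 214 of 255 tested genes higher in brain and 4 higher in ovary, a count of 7 without brain replicate 4. A contactin-1a-like gene (LOC106561641), an adhesion protein of axons, had 381, 394, 152 and 79.2 CPM in brain against 1.01 to 1.22 CPM in ovary. It was not particular to brain, since liver averaged 248 CPM, near the brain mean of 251.7 CPM. Clustered protocadherins give neurons their surface identity. A protocadherin alpha-C2-like gene (LOC106604881) had 95.2 to 263 CPM in brain and 7.7 to 15.4 CPM in ovary, and protocadherin gamma-C5-like LOC106604876 had 108 to 215 CPM in brain and 9.34 to 12.5 CPM in ovary. The clustered protocadherins also formed runs along the genome. On chr9:66542025-67093018, 16 neighbouring tested genes in a row were higher in brain, and 11 were on chr4:39076413-39493093, a run that also holds a Kv channel-interacting protein gene. Members of such clusters share sequence, so their counts are not independent. On the ovary side, protocadherin-8-like LOC106586834 had 0 to 0.207 CPM in brain and 1.16 to 6.37 CPM in ovary, with a log2 fold change of -5.57 that was -6.28 without brain replicate 3. It was not called by limma (adjusted p = 4.9e-03).

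Neural transcription factors were higher in brain in 78 of 114 tested cases and higher in ovary in 8, a count that was 14 without brain replicate 2 and 13 without brain replicate 3. Zinc finger protein ZIC 2-like (LOC106581638), a regulator of dorsal neural tissue, had 53.7, 493, 91 and 76.3 CPM in brain against 0.185 to 0.796 CPM in ovary, and zic5 had 25.2, 341, 41.2 and 32.1 CPM in brain against 0.0949 to 0.393 CPM in ovary. Brain replicate 2 stood above the other 3 for both genes, and without it their log2 fold changes were 7.19 in place of 8.47 and 7.04 in place of 8.79. A POU class 3 factor 2-like gene (LOC106607949, chr6:62778517-62782159), of a family that drives neuronal fate, had 13, 13.2, 6.52 and 6.66 CPM in brain and no count in ovary, so it was at least 134-fold higher in brain against the floor averaged over the ovary libraries. ELAV-like protein 3 (LOC106607222), an RNA-binding protein of neurons, had 63.4 to 218 CPM in brain and 0.0949 to 0.531 CPM in ovary, with 115 bases of its exons overlapped by the opposite strand. A LIM/homeobox Lhx8-like gene (LOC106599206) was on the ovary side, with 0.325, 0.0691, 0.148 and 0.0913 CPM in brain against 49.3, 50.1, 41.2 and 47.1 CPM in ovary. On the log2 scale it differed by -8.28, and by -8.87 without brain replicate 1. Lhx8 is known in mammals both for forebrain neurons and for oocytes. A Dlx2a-like gene (LOC106590258) had 0.384, 3, 0.738 and 0.335 CPM in brain against 125 to 150 CPM in ovary, with a log2 fold change of -6.84 that was -8.13 without brain replicate 2. Exons on the opposite strand overlap 397 bases of it.

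Calcium sensors were higher in brain in 44 of 60 tested cases and higher in ovary in 1. Calmodulin (LOC106601272), a calcium switch of all cells, had 1134, 1392, 810 and 598 CPM in brain and 73 to 88.7 CPM in ovary. The neuronal sensor visinin-like protein 1 (LOC106603349) had 533, 707, 208 and 330 CPM in brain against 0.593 to 1.27 CPM in ovary. Calmodulin differed by a log2 fold change of 3.57 and visinin-like protein 1 by 8.99.

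Some of the most abundant brain-side transcripts were secreted proteins that varied with the ependymins. Ependymin-2 (epd2) had 257, 52.1, 38262 and 27818 CPM in brain against 14.2 to 34.2 CPM in ovary. A lipocalin-like gene (LOC106578378), of a family that carries small lipids, had 496, 528, 5838 and 3163 CPM in brain against 22.1 to 29.7 CPM in ovary, and apolipoprotein Eb-like LOC106605689 had 129, 88.5, 4437 and 3161 CPM in brain against 7.99 to 11.5 CPM in ovary. Brain replicates 3 and 4 were the high ones for all of them, as they were for biglycan (bgn), a matrix proteoglycan named after its values were seen, with 13.6, 10.5, 139 and 97.8 CPM in brain against 0.106 to 0.475 CPM in ovary. Without brain replicates 3 and 4 the log2 fold changes were 3.29 for epd1 in place of 9.40, 2.77 for epd2 in place of 9.39, 4.44 for the lipocalin in place of 6.59, 3.65 for the apolipoprotein in place of 7.68 and 5.58 for biglycan in place of 7.88. All 5 were still called. Leaving out brain replicate 3 alone gave 8.55, 8.54, 5.74, 6.87 and 7.19 in the same order. Fitted on the 8 libraries alone, epd1 and epd2 had adjusted p of 2.6e-03 and 2.7e-03, which missed the threshold. The median log2 fold change of the connective tissue list was 1.03, and -1.08 without brain replicates 3 and 4.

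**Figure D3:**
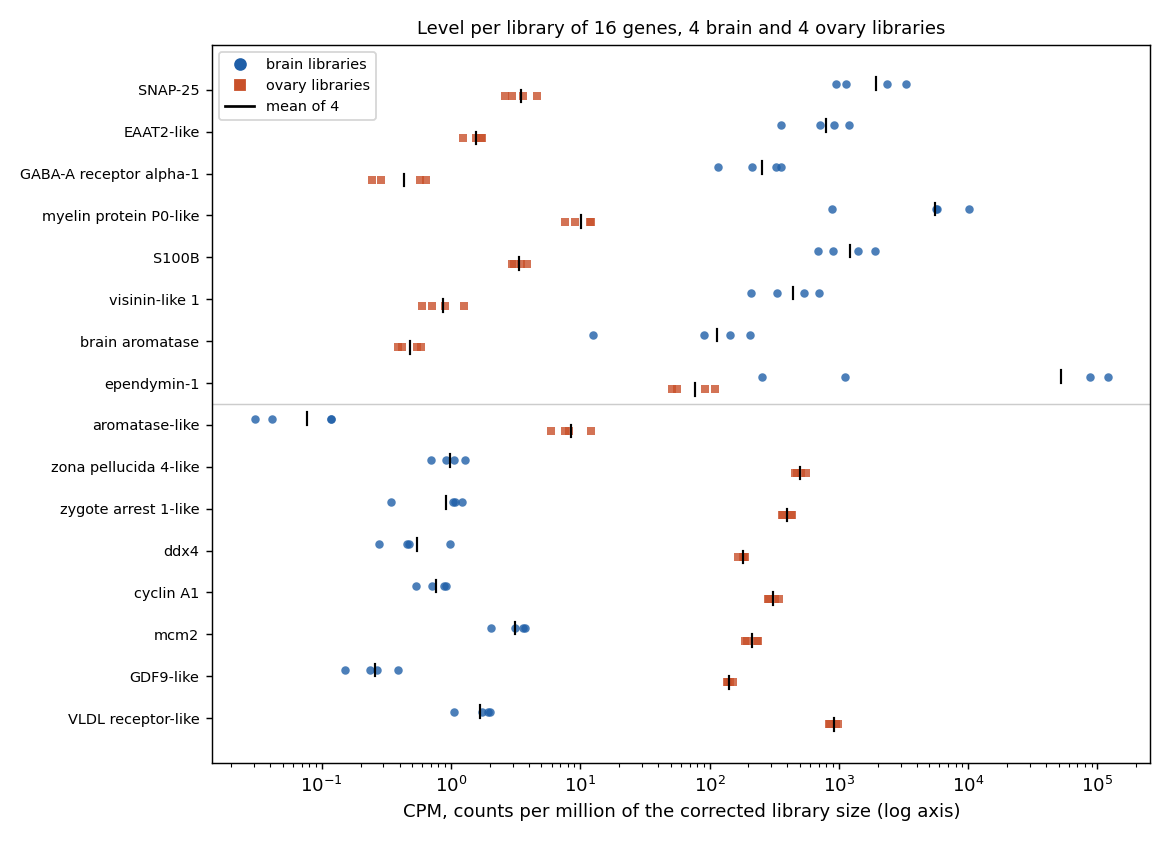
Level in CPM (log axis) of 16 genes in each of the 4 brain (blue circles) and 4 ovary (orange squares) libraries, with black ticks at the mean of 4; 8 brain-side genes lie above the grey line and 8 ovary-side genes below it. On the log axis the ovary libraries lie closer together than the brain libraries for each gene. Ependymin-1 has brain values between 255 and 120341 CPM, and the 2 aromatase genes lie on opposite sides.

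On the ovary side the egg coat was the clearest group. Of 55 listed genes 28 had no count in any of the 8 libraries. Of 24 tested genes 0 were higher in brain and 19 higher in ovary, and the median log2 fold change was -9.01. Genes without enough counts in any tissue were not tested, so part of this one-sided count may follow from the filter. At an unadjusted p under 0.05, edgeR had 0 members higher in brain, and DESeq2 and limma called 0. Zona pellucida proteins form the coat around the egg. The zona pellucida 4-like gene LOC106568862 (chr14:16654334-16657617) had 0.915, 0.704, 1.06 and 1.28 CPM in brain against 476, 558, 459 and 507 CPM in ovary, a log2 fold change of -8.99 ± 0.23 (edgeR adjusted p = 2.3e-13). A zona pellucida 3-like gene (LOC106584578, chr23:38809639-38811296) had no count in brain and 44, 38.6, 19.1 and 35.6 CPM in ovary, so it was at least 443-fold lower in brain. The summed egg coat level was 9.089 to 30.83 CPM in brain and 3637 to 4481 CPM in ovary. The 5 tested members not called included 2 eggshell protein genes (LOC100136930 and LOC106564191) that averaged 0.4001 and 0.5382 CPM in brain and 0.4015 and 0.5183 CPM in ovary. The names zona pellucida 4-like and 3-like are shared by 23 and 28 genes, and only uniquely mapped reads were counted, so levels of single copies are uncertain.

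Germ cell and oocyte RNA proteins had 4 of 29 tested genes (13.8%) higher in brain and 21 (72.4%) higher in ovary. The oocyte factor zar1l (chr11:79569873-79572215), of a family that guards maternal RNA, had 1.21, 0.345, 1.03 and 1.07 CPM in brain against 366, 430, 367 and 437 CPM in ovary. The germ cell marker ddx4 (vasa, chr1:149770365-149781299) had a log2 fold change of -8.42 ± 0.33 (edgeR adjusted p = 3.6e-12). The Piwi protein gene piwil2, which silences transposons in germ cells, was named after its values were seen and had 0.0295 to 0.236 CPM in brain and 34.1 to 41.4 CPM in ovary. Copies with the name tudor domain-containing protein 7B-like fell on opposite sides. LOC106608959 had 56.5, 59.9, 28.2 and 29.9 CPM in brain against 1.43, 2.68, 2.52 and 2.41 CPM in ovary, while LOC106602533, named after its values were seen, had 0.236, 0.332, 0.207 and 0.0609 CPM in brain against 71.2, 63.3, 68.3 and 54.4 CPM in ovary. A nanos homolog 1-like gene (LOC106611616) was also higher in brain, with 8.95, 15.1, 60.2 and 37.3 CPM in brain and 1.13 to 2.18 CPM in ovary. It was highest in pituitary, which averaged 144 CPM.

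Of 22 tested meiosis genes, 4 (18.2%) were higher in brain and 11 (50%) higher in ovary, against 27.6% and 19.0% of all genes tested. The gene sycp2l, named like a synaptonemal complex protein, had 0.118, 0.0691, 0.295 and 0.0304 CPM in brain against 45.1, 45.1, 40.2 and 42.7 CPM in ovary. Without brain replicate 3 its log2 fold change was -9.12 in place of -8.44. Shugoshin-like 1 (LOC106588889), which protects the cohesion of sister chromosomes, had 0.359 to 0.561 CPM in brain and 51.9 to 55.4 CPM in ovary. The 4 brain-side members averaged between 0.4674 and 2.533 CPM in brain. The largest fold among them was that of mns1, a gene also linked to cilia in mammals, with 0.295, 3.73, 3.78 and 1.03 CPM in brain against 0 to 0.0949 CPM in ovary, where the opposite strand overlaps 835 bases of its exons. Its log2 fold change was 5.58, and 6.27 without ovary replicate 2. Another brain-side member, sycp2, was named after its values were seen and shares its product name with sycp2l apart from endings. It had 2.69, 1.09, 3.19 and 3.16 CPM in brain against 0.162 to 0.309 CPM in ovary (log2 fold change 3.34 ± 0.37, edgeR adjusted p = 4.2e-07).

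Cell cycle and spindle genes were higher in ovary in 86 of 112 tested cases and higher in brain in 8, and DNA replication and repair genes were higher in ovary in 46 of 70 and higher in brain in 0. At an unadjusted p under 0.05, 4 of the 70 were higher in brain by edgeR, and DESeq2 and limma called 0. The spindle assembly factor tpx2 had 4.61, 3.48, 7.23 and 3.99 CPM in brain against 404, 416, 375 and 374 CPM in ovary. Cyclin A1 (ccna1, chr11:87358083-87363218), a cyclin of the germ line in mammals, had 0.886, 0.539, 0.708 and 0.913 CPM in brain against 281, 346, 320 and 288 CPM in ovary, a log2 fold change of -8.68 ± 0.32 (edgeR adjusted p = 1.8e-12). A cyclin-B1-like gene (LOC106566708), part of the factor that matures the oocyte, had 1.28 to 1.83 CPM in brain and 339 to 379 CPM in ovary. The licensing factor Cdt1-like LOC106587264 had 1.95, 1.41, 2.54 and 2.16 CPM in brain against 227, 220, 198 and 231 CPM in ovary. The replicative helicase subunit mcm2 (LOC106583719) had 2.04, 3.59, 3.72 and 3.1 CPM in brain against 235, 231, 196 and 189 CPM in ovary. Among the brain-side members, M-phase inducer phosphatase 1-like LOC106564311, a cdc25-type phosphatase, had 11.8, 13.8, 6.43 and 3.38 CPM in brain against 0.0462 to 0.27 CPM in ovary, and its log2 fold change of 6.20 was 6.97 without ovary replicate 4.

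Ovarian growth factors and gonadotropin receptors were higher in ovary in 11 of 22 tested cases (50%) and higher in brain in 4 (18.2%), with a median log2 fold change of -2.08. Anti-Mullerian hormone (amh, chr10:20356994-20360310), made by follicle cells, had 0.354, 0.622, 0.531 and 0.396 CPM in brain against 158, 295, 200 and 226 CPM in ovary, and exons on the opposite strand overlap 429 bases of it. The oocyte growth factor GDF9-like LOC106612229 had 0.152 to 0.387 CPM in brain and 137 to 151 CPM in ovary, and BMP15-like LOC106578107, its usual partner, had 0.443, 1.44, 0.531 and 0.122 CPM in brain against 153 to 175 CPM in ovary. The BMP15-like fold of -7.90 on the log2 scale was -8.80 without brain replicate 2. The 4 brain-side members were 3 follistatin genes and an inhibin beta B-like gene, and follistatins bind activins. Follistatin-A-like LOC106561792 had 13.3, 7.51, 10.3 and 3.62 CPM in brain against 0.138 to 0.285 CPM in ovary. The follicle stimulating hormone receptor fsh-r, which carries the signal of the pituitary to follicle cells, was named after its values were seen and had 0.0591, 0.0414, 0.148 and 0.761 CPM in brain against 6.42, 8.14, 8.28 and 7.54 CPM in ovary. The difference was -4.98 on the log2 scale, and -6.57 without brain replicate 4.

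Of 12 tested genes of steroid synthesis, 2 (16.7%) were higher in brain and 10 (83.3%) higher in ovary. Brain aromatase (LOC106584746, chr23:44296624-44312345), which makes estrogen in radial glia of fish, had 90.4, 12.6, 143 and 207 CPM in brain against 0.392, 0.546, 0.584 and 0.417 CPM in ovary (log2 fold change 7.86 ± 0.68, edgeR adjusted p = 2.6e-08). It averaged 185 CPM in pituitary. The aromatase-like gene LOC106587170, named after its values were seen, had 0.118, 0.0414, 0.118 and 0.0304 CPM in brain against 12.1, 7.57, 5.89 and 8.17 CPM in ovary (log2 fold change -6.78 ± 0.49, edgeR adjusted p = 2.7e-09). So 2 genes for the enzyme that makes estrogen were called on opposite sides, and neither pair of groups overlapped. Among all genes tested, groups did not overlap for 37.7% with brain higher and for 36.8% with ovary higher. Estradiol 17-beta-dehydrogenase 1-like LOC106607392, which activates estrogen, had 0.443, 0.262, 0.826 and 1.58 CPM in brain against 32, 40.3, 40.2 and 46.6 CPM in ovary, and its log2 fold change was -6.34 without brain replicate 4 in place of -5.71.

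The other ovarian lists had calls on both sides. Ovarian soma transcription factors had 5 of 22 tested genes (22.7%) higher in brain and 5 (22.7%) higher in ovary, near the 27.6% and 19.0% of all genes tested. Their median log2 fold change of -0.01 was 0.17 with DESeq2 size factors, -0.11 with plain totals, -0.50 in the fit of the 8 libraries and -0.85 without brain replicates 3 and 4, so no direction is given for it. The brain-side count was 3 without ovary replicate 1, and the ovary-side count was 8 without brain replicates 3 and 4. Wilms tumor protein wt1, a factor of gonad support cells, had 0 to 0.0886 CPM in brain and 11, 14.5, 13 and 15.8 CPM in ovary, and its log2 fold change of -8.90 was -10.21 without brain replicate 1. The Sox9-type factor LOC106589342, known from both gonad and glia, had 41.7, 27.5, 32.6 and 26.7 CPM in brain against 0.237 to 0.451 CPM in ovary. The list shares its Lhx9 genes with the neural factors, and 2 of those were higher in brain. In the yolk uptake list 5 of 40 tested genes (12.5%) were higher in brain and 12 (30%) higher in ovary, against 27.6% and 19.0% of all genes tested. The brain-side count was 9 without brain replicate 1 or 2. A very low-density lipoprotein receptor-like gene (LOC106580049, chr20:16316036-16324928), of the type that takes yolk precursors into the oocyte, had 2.01, 1.05, 1.95 and 1.73 CPM in brain against 957, 984, 852 and 845 CPM in ovary. A second receptor gene (LOC100136429) differed less, with 72.2 to 90.2 CPM in brain and 579 to 677 CPM in ovary. Vitellogenin itself, made in the liver, averaged 18.37 CPM in brain and 21.74 CPM in ovary and was not called (LOC100136426, edgeR adjusted p = 0.659). In the oocyte chromatin list 5 of 20 tested genes (25%) were higher in brain and 3 (15%) higher in ovary, also near the shares of all genes tested. The linker histone B4 of eggs (LOC106583382, chr22:41790998-41793254) had 0.207, 0.166, 0.207 and 0.274 CPM in brain against 109, 106, 83.9 and 97 CPM in ovary. Histone H1.0-B-like LOC106579217, a linker histone of resting cells that was named after its values were seen, had 115, 248, 151 and 122 CPM in brain against 9.86, 10.3, 12.7 and 18 CPM in ovary. The median of this list was 0.11 on the log2 scale, at 0.30 with DESeq2 size factors, 0.02 with plain totals and -0.09 without brain replicates 3 and 4.

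Of the 10 ovary-side genes of highest CPM, 4 had no product name beyond uncharacterized and 1 was named as an uncharacterized serine-rich protein. The last of these, LOC106570242 (chr14:66099252-66101320), had 3.04, 1.34, 2.21 and 2.65 CPM in brain against 1401, 1405, 1269 and 1261 CPM in ovary, and was the 1 ovary-side gene above 1000 CPM in ovary. LOC106608796, also uncharacterized, had 0.967 to 2.07 CPM in brain and 692 to 987 CPM in ovary. Their names give no role.

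Lists of general cell function had few called genes, against 27.6% higher in brain and 19.0% higher in ovary among all genes tested. Of 172 cytosolic ribosomal protein genes 2 (1.16%) were higher in brain and 2 (1.16%) higher in ovary. Their median log2 fold change was 0.86. Of 136 oxidative phosphorylation genes 22 (16.2%) were higher in brain and 5 (3.68%) higher in ovary (median 0.76). Of 82 proteasome genes 7 (8.54%) were higher in brain and 3 (3.66%) higher in ovary (median -0.08). Single libraries moved these small counts: without brain replicate 2 the brain-side counts were 4 ribosomal and 12 proteasome genes, and without ovary replicate 3 they were 1 and 4. DESeq2 size factors moved the median of all genes up by 0.21, with which the proteasome median became 0.13, so no direction is given for it. The ribosomal and oxidative medians stayed above 0 with DESeq2 size factors (1.04 and 0.99) and with plain totals (0.75 and 0.69). With brain higher, groups did not overlap for 107 of the 172 ribosomal, 73 of the 136 oxidative and 26 of the 82 proteasome genes. With ovary higher, they did not overlap for 8, 23 and 35 in the same order. Among all genes tested these shares were 37.7% with brain higher and 36.8% with ovary higher.

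The study's own lists of leading genes and transcription factors were chosen on these libraries, so their direction is not independent evidence. All 10 brain genes and 10 brain factors were called higher in brain, with log2 fold changes between 8.70 and 9.58 and between 6.06 and 11.24. All 10 ovary genes and 10 ovary factors were called higher in ovary, between -10.47 and -8.35 and between -8.00 and -5.32. Vesicular glutamate transporter 2.1 (LOC106587477), which fills vesicles with glutamate, had 104, 47.8, 33.1 and 52 CPM in brain against 0.0531 to 0.119 CPM in ovary. On the ovary side a cryptic protein-like gene (LOC106568419), named like a co-receptor of Nodal signals, had 0.0295, 0.0414, 0.0295 and 0.122 CPM in brain against 53.8, 54, 56.9 and 60.1 CPM in ovary.

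Genes of the same name could lie on opposite sides. Product names were matched after endings such as -like were removed. Only names carried by exactly 2 tested protein-coding genes were kept, which gave 4301 pairs. Names with more tested genes are not in the shares below. Sequence similarity was not checked, so the members of a pair, called copies here, need not be copies of the same gene. Both copies were higher in brain in 640 pairs (14.9%), both higher in ovary in 387 (9%) and on opposite sides in 118 (2.74%). A single copy was called in 761 pairs (17.7%) with brain higher and in 680 pairs (15.8%) with ovary higher. No call was made in 1715 pairs (39.9%). Among all genes tested, 27.6% were called higher in brain and 19.0% higher in ovary. In 116 of the 118 neither copy's groups overlapped, as for 10023 of the 10229 genes called higher in brain and 7011 of the 7031 called higher in ovary. In 30 of the 116 both copies averaged at least 10 CPM in their higher tissue. For gamma-glutamyltransferase 7, named after the values were seen, the ggt7 copy (chr13:13401892-13412818) had 149, 173, 76.2 and 97.8 CPM in brain against 2.18 to 2.75 CPM in ovary. Its partner LOC106565945 (chr12:70670050-70676212) had 0.152 to 0.365 CPM in brain against 149, 147, 138 and 151 CPM in ovary. Group 3 secretory phospholipase A2-like showed the same split at unequal levels. LOC106568300 had 4.08, 2.06, 2.45 and 1.03 CPM in brain and 3 counts in ovary, a ratio of 131 with a counting interval between 44.9 and 637, and LOC106585295 (chr24:17916620-17935687) had 0.0691 to 0.213 CPM in brain against 52.4 to 61.5 CPM in ovary. The brain-side glutamate transporter LOC106573351 had an ovary-side copy too, LOC106587903, at no count in brain and 0.403 to 0.743 CPM in ovary, at least 7.52-fold lower in brain, though it was not called with the replicate number as a block (edgeR adjusted p = 3.7e-03). Their product name is shared by 6 genes, of which only this pair was tested.

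**Figure D4:**
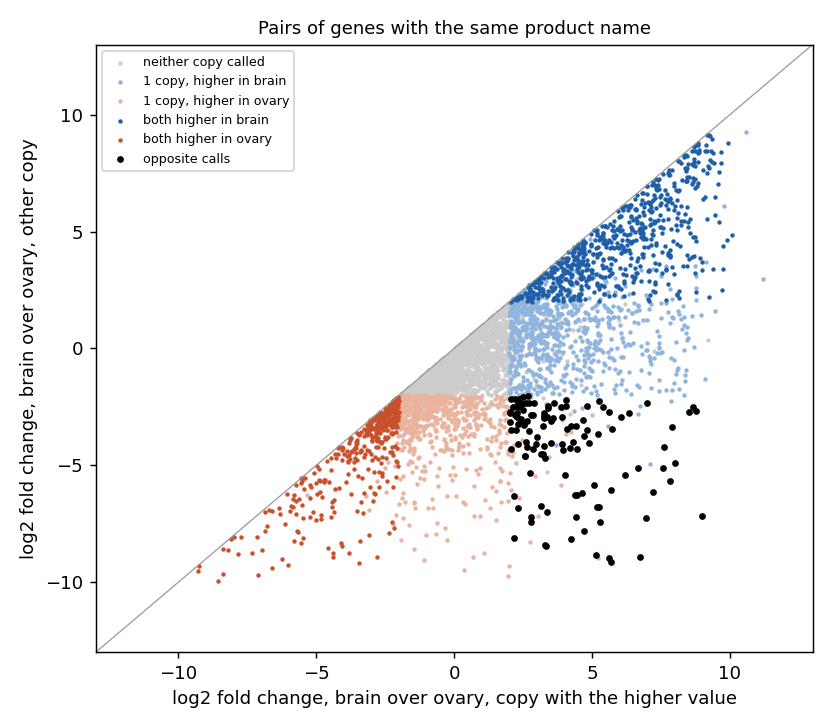
Log2 fold change, brain over ovary, of the 2 genes in each of 4301 pairs with the same product name after endings such as -like were removed. Only names carried by exactly 2 tested protein-coding genes are shown. The copy with the higher value is on the horizontal axis and the other on the vertical. Black points are the 118 pairs with opposite calls, at the lower right; 640 pairs lie in the upper right with both copies higher in brain and 387 in the lower left with both higher in ovary.

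Genes on the brain side were long. Protein-coding genes called higher in brain spanned a median of 19.8 kb on the genome (quartiles 7.51 and 52.1 kb), those called higher in ovary 9.69 kb (4.8 and 19.6 kb), and those not called 12.8 kb. The median number of exons was 8 in both called groups. The exons of a gene added up to a median of 3.13 kb on the brain side and 2.49 kb on the ovary side. Of 2024 protein-coding genes over 100 kb, 55% were called higher in brain and 3.71% higher in ovary. Of 7004 genes of up to 5 kb, 21.7% were higher in brain and 24.2% higher in ovary. The order held within levels: among genes at 10 to 100 CPM in the higher tissue the median span was 26.6 kb on the brain side and 10.4 kb on the ovary side. These values are a description of the annotation and carry no test.

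**Figure D5:**
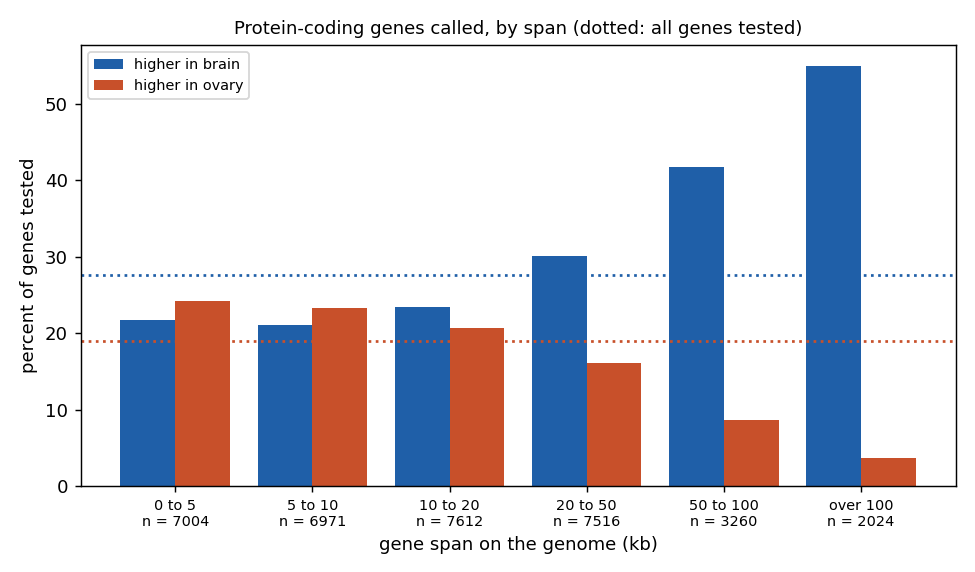
Percent of tested protein-coding genes called higher in brain (blue) and higher in ovary (orange) by gene span in kb, with the number of genes per bin; dotted lines are the percents over all genes tested, 27.6 and 19.0. The blue bars reach 55% over 100 kb, where the orange bar is at 3.71%.

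Brain libraries gave a wider set of transcripts. They had 28206, 27500, 29376 and 29296 genes at 1 CPM or more, against 24464, 24325, 24529 and 24585 in ovary, and the groups did not overlap (mean 28594 ± 904 in brain and 24476 ± 112 in ovary, SD, n = 4 each, exact permutation test, two-sided, p = 0.0286, adjusted over 2 measures 0.0286). Long non-coding RNA genes took 1.33, 1.45, 1.37 and 1.29% of counts in brain and 0.951, 0.975, 0.938 and 1.01% in ovary (exact permutation test, two-sided, p = 0.0286, adjusted 0.0286). With 4 against 4 libraries, 0.0286 is the smallest p this test can give. The 10 most abundant genes took 3.95 to 23.4% of counts in brain and 1.14 to 1.3% in ovary. Of long non-coding RNA genes tested, 480 (27.1%) were called higher in brain and 394 (22.3%) higher in ovary, near the 27.6% and 19.0% of all genes tested.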

How the data were processed

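The authors mapped reads to the Atlantic salmon assembly ICSASG_v2 with TopHat2, counted uniquely mapped reads over exons with HTSeq and deposited raw counts per gene. The libraries were stranded, but the strand setting of the counting is not given in the sources used here, so reads of genes with exons on opposite strands cannot be told apart. The deposited table of centered values was not used. Gene positions, names and exon lengths came from the deposited annotation.

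Counts were fitted in edgeR (version 4.0.16) over all 16 libraries with 1 mean per tissue, after filterByExpr and TMM scaling, and brain was contrasted with ovary by the quasi-likelihood test. Each standard error was taken as the size of the log2 change over the square root of F. Alternatives used DESeq2 (version 1.42.0) and limma (version 3.58.1). The fit was tested on simulated data. Exact permutation tests used scipy (version 1.17.1). Counts over the 4 brain and 4 ovary libraries run between 23239082 and 51858156, and intervals and floors cover counting error only.

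Genes, lists and tests were chosen with earlier results of these data known. Named genes are those called with groups that do not overlap: in each functional list the 3 of highest CPM, the 1 of largest fold and up to 2 on the other side; per side the 10 of highest CPM and the 5 of largest fold at 10 CPM or more; the study's lists; and the 5 opposite copy pairs of largest fold. Genes outside the rule are marked as named after their values were seen, and the genes given as not called were also chosen that way. No column of the count table was left out.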

Additional observations from a re-analysis of the deposited data

Results flagged for a closer look

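In groups of 4 libraries, 1 library was set apart where its gap to the nearest other took a larger part of the group's range than Dixon's critical value for 4 samples. Chance flags about 1 in 20 groups where values are independent and normally spread. Groups of a few counts, as for LOC106583541 in brain and LOC106568300 in ovary, do not meet this, so that rate is only a rough guide. Of the 210 groups whose values are reported 15 were flagged, 13 in brain and 2 in ovary. Brain replicate 2 stood high for the glutamate receptor U1-like gene LOC106582807 (1647 CPM), zinc finger protein ZIC 2-like LOC106581638 (493 CPM), zic5 (341 CPM) and Dlx2a-like LOC106590258 (3 CPM), low for the potassium channel subunit LOC106568748 (0.0553 CPM), and high for its total of 51858156 counts. Brain replicate 4 stood high for vasotocin LOC106563362 (1030 CPM), isotocin LOC106584961 (2169 CPM), fsh-r (0.761 CPM) and the cryptic protein-like gene LOC106568419 (0.122 CPM), and low for the neurofilament gene nfm (106 CPM) and alpha-internexin-like LOC106588656 (98.7 CPM). Brain replicate 3 stood apart for GABA transporter 2-like LOC106583541 (0.0885 CPM). In ovary, replicate 1 stood apart for myelin basic protein-like LOC106583543 (18.5 CPM) and replicate 3 for group 3 secretory phospholipase A2-like LOC106568300 (0 CPM). The cause was not tested for any of them.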

How the results depend on the processing

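No called result reversed under any of the 19 alternatives. Requiring the fold itself to exceed the threshold (glmTreat) left 10800 genes called, 6549 higher in brain and 4251 higher in ovary, by the construction of that test. DESeq2 size factors moved the median of all genes by 0.21 on the log2 scale and gave 10957 and 6257 genes, a fit of the 8 libraries alone moved it by 0.27 and gave 9395 and 5659, and plain totals moved it by -0.08 and gave 9950 and 7386. The DESeq2 Wald test gave 11432 and 6409. Leaving out each replicate gave 9566 to 10650 genes higher in brain and 6870 to 7171 higher in ovary. It left a difference in lncRNA share between 0.3611 and 0.4157 percentage points and in genes at 1 CPM between 3858 and 4484, each with an exact permutation p of 0.0571, the smallest that 3 against 4 libraries can give. Without brain replicates 3 and 4, chosen after seeing the data, 10357 and 7127 genes were called. Of 3437 values for 182 named genes, 3364 kept their call and 73 lost it, in 20 genes. With the replicate number as a block 9786 and 7037 genes were called (16823 in all). Same-numbered brain and ovary libraries had correlations of 0.0954, 0.00444, -0.00244 and 0.0812 in their deviations. Differently numbered ones ran between -0.0839 and 0.0556. The study used 4 fish for its 4 tissues, but no label says that a number marks a fish, so these values do not settle whether the numbers pair the libraries. Depth limits genes near the floor of 3 counts.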

Other observations

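Genes called on 1 side also lay together in places other than the protocadherin clusters. The longest such run was on chr24:44609775-46373813, where 12 neighbouring tested genes of unlike names were higher in brain. On chr12:624029-1024376, 10 neighbouring tested genes in a row were higher in ovary, and on chr18:67234833-67458418 there were 9. Both ovary-side runs are mostly zinc finger genes, several of them named after frog oocyte or gastrula proteins. Zinc finger genes share sequence, so their counts are not independent. On chromosome 8, 17.4% of 483 tested genes were higher in brain and 29.8% higher in ovary, against 27.6% and 19.0% of all genes tested. On chromosome 2 the shares were 24.3% and 25.4%. These are descriptions with no test.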
